A study of Homo sapiens with 2 samples.

Results

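Keratins are the intermediate filament proteins of epithelial cells. Each filament is built from heterodimers of an acidic type I and a basic type II keratin, so that members of both types are made together, and the pairs differ between epithelia. Simple, single-layered epithelia make KRT8 and KRT18, joined in glands and ducts by KRT7 and KRT19, whereas the basal layer of stratified epithelia makes KRT5 with KRT14 or KRT15, and KRT17 appears in skin appendages and injured epidermis. Carcinomas usually keep the keratins of their tissue of origin, and KRT7 in the absence of KRT20 is a familiar staining pattern of ovarian carcinoma.

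The keratins described here are KRT5, KRT7, KRT8, KRT15, KRT17, KRT18, KRT19, KRT23, KRT80 and KRT81, which are 5 genes of each type. Every array probe whose RefSeq accession belongs to one of these 10 genes (of 17240 genes named on the arrays) was taken, which gave 14 of the 41000 probes of the arrays, with 3 probes for KRT18, 2 each for KRT8 and KRT80 and 1 for each of the other genes. In the RefSeq table of the assembly GRCh38.p14, 6 of the genes lie on chromosome 12 and 4 on chromosome 17. KRT18 is the type I gene that lies on chromosome 12, in the type II cluster.

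SKOV3, an established human ovarian adenocarcinoma cell line, was infected with a lentiviral pLKO.1-puro vector that carried either an shRNA against RUNX2 or a scrambled sequence, and puromycin-resistant clones were grown out. RNA of the knockdown clone cl-sh3 was hybridised against RNA of the control (mock-transfected) clone on Agilent arrays of the whole human genome, which read both dyes. In hybridization 1 cl-sh3 carried Cy5 and the control Cy3, and in hybridization 2 the dyes were exchanged. Each arm is 1 clone, and both arrays hold the same pair of RNAs on 1 slide, so they count as 1 replicate. The clones therefore cannot be compared by a test, and the SD of the hybridizations (n = 2) covers technical error only. The brightest RUNX2 probe had log2 ratios of cl-sh3 over control of -2.04 and -1.30 in hybridizations 1 and 2, while its other probes were at 0.17 and -0.13 and at -0.29 and -0.17.

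Intensities were corrected for background and normalised within each array, and a log2 ratio above 0 means more signal from cl-sh3. A normalised signal is given in scanner units and includes the constant of 50 added in the correction, which draws the ratios of dim probes towards 0. Signals are compared between the clones within a probe and an array. Probes are called bright or dim and are ranked by signal. This does not rank the amounts of their transcripts, since brightness also depends on the probe. Less of a transcript per cell and fewer cells that make it cannot be told apart in these RNAs. A probe was kept when the scanner software marked at least 1 of the RNAs as well above background in both hybridizations, which held for 88.0% of all probes. All 14 keratin probes were kept, and in 13 of them both clones were well above background on both arrays. The exception was KRT17, for which the control passed on 1 array.

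With these normalised values, no keratin probe differed 2-fold or more in the same direction on both arrays. The background rate of that rule was 0.122% of 36060 probes in the higher and 0.394% in the lower direction. The differences of the keratins were smaller and mostly of one sign. In both hybridizations 12 of the 14 probes were higher in cl-sh3, against 29.8% of all probes, and 0 were lower in both, against 27.3%. At a limit of 1.5-fold on both arrays, 3 of the 14 probes were higher, against 1.35% of all probes, and 0 were lower, against 2.32%. These were the KRT17 probe and 2 of the 3 KRT18 probes. KRT17 was kept through cl-sh3, the clone in which it was higher. Where both RNAs had to be above background on both arrays, 2 of 13 keratin probes were past 1.5-fold higher, against 1.51% of 31350 probes, and 11 were higher at any size, against 29.4%. With the scanner software's own ratios the probes past 1.5-fold higher were those of KRT17 and KRT7, and no KRT18 probe, against 2.27% of all probes. The median log2 ratio of the 14 probes was 0.45 in hybridization 1, 0.44 in hybridization 2 and 0.45 for the mean, or 1.36-fold, while the median of all kept probes was 0.01. A list of 14 probes from 10 genes, several of which share a gene, is described here and not tested.

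**Figure D1:**
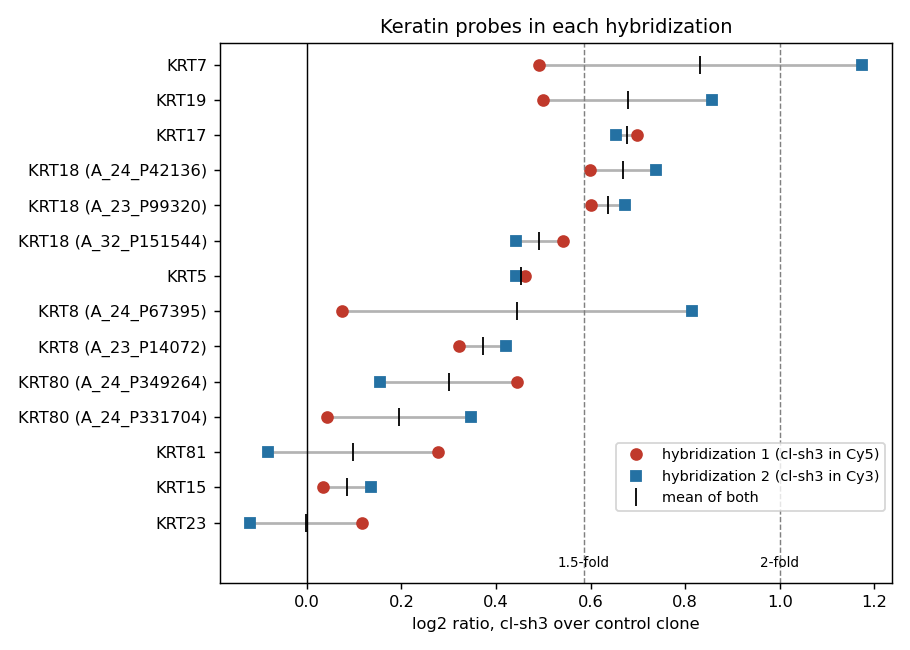
Log2 ratio of cl-sh3 over control (horizontal axis) for each of the 14 keratin probes, with a circle for hybridization 1, a square for hybridization 2 and a bar for their mean; dashed lines mark 1.5-fold and 2-fold. KRT7 reached 1.17 in hybridization 2 but 0.49 in hybridization 1, and only KRT23 and KRT81 fall on both sides of 0.

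The simple epithelial keratins KRT7, KRT8, KRT18 and KRT19 were higher in cl-sh3 with all 7 of their probes on both arrays, with a median log2 ratio of 0.64 or 1.55-fold. KRT18, the type I partner of KRT8 and a substrate of caspases in dying epithelial cells, had similar ratios on both arrays with each of its probes. Its brightest probe, A_32_P151544, had normalised signals of 73980 in cl-sh3 and 50845 in the control in hybridization 1, and of 67151 and 49427 in hybridization 2. The ratios of this probe were 0.54 and 0.44, a mean of 0.49 ± 0.07 (SD of 2 hybridizations) or 1.41-fold. Both clones lay far above background, and on each array cl-sh3 was the brighter.

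A second KRT18 probe, A_23_P99320, read 19118 in cl-sh3 and 12606 in the control in hybridization 1, and 17765 and 11146 in hybridization 2. The third, A_24_P42136, read 18011 and 11890 in hybridization 1 and 16446 and 9865 in hybridization 2. Their mean log2 ratios were 0.64 ± 0.05 and 0.67 ± 0.10, or 1.55-fold and 1.59-fold. The 3 probes therefore span 0.49 to 0.67, and each probe's smaller ratio exceeded the difference between its hybridizations. KRT18 has processed copies elsewhere in the genome, so a probe may also take up signal from them.

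KRT8, the type II keratin that pairs with KRT18, had 2 probes whose hybridizations behaved differently. The brighter one, A_23_P14072, gave 28648 in cl-sh3 against 22905 in the control in hybridization 1, and 27109 against 20244 in hybridization 2. Its log2 ratios were 0.32 and 0.42, a mean of 0.37 ± 0.07 or 1.29-fold, which is below each of the KRT18 probes. The dimmer probe, A_24_P67395, read 681 and 647 in hybridization 1 and 936 and 532 in hybridization 2. Its ratios of 0.07 and 0.81 differed by more than those of 95% of all probes, for which the difference between hybridizations stayed under 0.63, and its mean was 0.44 ± 0.52. KRT8 likewise has processed copies that its probes may share.

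KRT7, a type II keratin of glandular and ductal epithelia, had the highest mean ratio of the 14 probes. Its normalised signals were 10553 in cl-sh3 and 7514 in the control in hybridization 1, and 11801 and 5232 in hybridization 2. The log2 ratios were 0.49 and 1.17, a mean of 0.83 ± 0.48 or 1.78-fold, and hybridization 2 by itself was past 2-fold. On that array 0.607% of all probes were past 2-fold higher and 0.544% lower, and in hybridization 1, where 0 keratin probes were, 0.244% and 1.4%. KRT7 shares with the dim KRT8 probe a difference between hybridizations above the limit of 0.63. The size of the KRT7 difference between the clones is therefore uncertain, while its sign was the same on both arrays.

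KRT19, a short type I keratin without a tail domain that pairs with KRT7 and KRT8, read 52025 in cl-sh3 and 36787 in the control in hybridization 1. In hybridization 2 it read 52988 and 29242. The ratios were 0.50 and 0.86, a mean of 0.68 ± 0.25 or 1.60-fold, and KRT19 missed the limit of 1.5-fold in hybridization 1. Of all kept probes, 1.49% had a mean ratio at least as high as that of KRT19, and 0.715% one at least as high as that of KRT7.

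**Figure D2:**
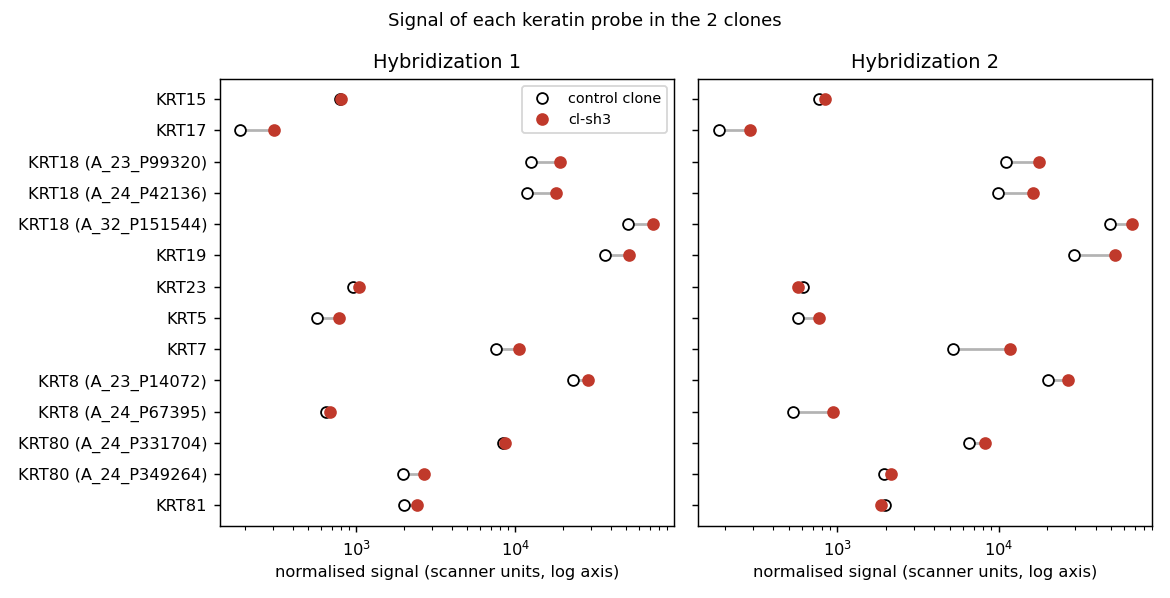
Normalised signal of each keratin probe (horizontal log axis, scanner units) in the control clone (open circles) and in cl-sh3 (filled circles), with hybridization 1 on the left and hybridization 2 on the right. In every KRT7, KRT8, KRT18 and KRT19 probe the filled circle lies to the right on both arrays, and in KRT15 and KRT23 the circles nearly coincide.

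Most simple keratin probes were bright, and 7 of the 14 keratin probes were among the 3606 brightest of the kept probes. Among these the median ratio of all probes was 0.00, 35.2% of probes were higher in cl-sh3 on both arrays and 3.94% were past 1.5-fold higher on both. The 7 keratin probes were those of KRT7, KRT19 and KRT18, the brighter probe of KRT8 and the brighter of KRT80. All 7 were higher in both hybridizations and 2 of them were past 1.5-fold.

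Among the keratins of stratified epithelia, KRT17 and KRT5 were higher in cl-sh3 and KRT15 was nearly level. KRT17, a type I keratin of skin appendages and wounded epidermis, was dim. It gave 303 in cl-sh3 and 186 in the control in hybridization 1, and 288 and 183 in hybridization 2. The log2 ratios were 0.70 and 0.65, with a mean of 0.68. The size of this difference is uncertain, since the control was above background on 1 array only and the mean ran from 0.50 to 1.18 with the processing. The scanner software's own log2 ratios for KRT17 were 0.85 and 1.51 (mean 1.18), so the mean was past 2-fold and hybridization 1 fell short of it, and without background correction the mean was 0.50 and the probe was no longer past 1.5-fold on both arrays. Another pair of probes carries the accession of the pseudogene KRT17P5. The log2 ratios were 0.35 and -0.26 for the brighter one and -0.06 and 0.10 for the other. In each the signs were opposite, so that the ratios largely cancel in the means of 0.04 and 0.02.

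KRT5, the type II keratin of the basal layer, had nearly equal ratios on both arrays. It read 782 in cl-sh3 and 568 in the control in hybridization 1, and 770 and 567 in hybridization 2. The ratios were 0.46 and 0.44, a mean of 0.45 ± 0.01 or 1.37-fold. With other processing the mean of KRT5 ran from 0.45 to 0.60, a spread that this SD does not cover. KRT15, a type I keratin of basal cells and of hair follicle stem cells, read 805 and 785 in hybridization 1 and 838 and 763 in hybridization 2. Its ratios were 0.04 and 0.14, smaller than the median difference of 0.22 between the hybridizations over all probes.

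The basal partner KRT14, which was not among the 10 genes, had 2 probes that differed. The brighter one had ratios of -0.06 and 0.10, and a dim one of 0.34 and 0.58 with the control above background on 1 array. The KRT6 genes, type II partners of KRT17 in stressed epidermis, had ratios of 0.06 and 0.54 for KRT6A, 0.15 and 0.07 for KRT6B and 0.23 and -0.06 for KRT6C. These genes are nearly identical over much of their length, so their probes may not separate them. Neither KRT16 probe was kept.

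The other 3 genes showed little difference. KRT80, a type II keratin found near desmosomes of differentiating epithelia, had 2 probes. A_24_P331704 read 8647 in cl-sh3 and 8400 in the control in hybridization 1 and 8277 and 6509 in hybridization 2, a mean log2 ratio of 0.19 ± 0.22. A_24_P349264 read 2669 and 1961 and then 2150 and 1931, a mean of 0.30 ± 0.20. Both were higher in cl-sh3 on both arrays, but the array with the higher ratio was not the same for the 2 probes.

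KRT81, a type II keratin of the hair cortex, read 2423 in cl-sh3 and 1998 in the control in hybridization 1 and 1875 and 1984 in hybridization 2. Its log2 ratios of 0.28 and -0.08 had opposite signs. KRT23, a type I keratin, read 1034 and 954 in hybridization 1 and 566 and 615 in hybridization 2, with ratios of 0.12 and -0.12 that cancel in the mean. For both genes the sign followed the dye, since each was brighter in Cy5 on both arrays. The probe of KRT81 may share signal with the closely related hair keratins.

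By type, the 7 probes of type I members had a median log2 ratio of 0.64 and the 7 probes of type II members of 0.37. The ranges overlapped, from -0.00 to 0.68 for type I and from 0.10 to 0.83 for type II. The type I median is the value of a KRT18 probe, and KRT18 gave 3 of the type I probes. Among the genes with more than 1 probe, averaging the probes gave 0.60 for KRT18, 0.41 for KRT8 and 0.25 for KRT80. With probes averaged per gene, KRT18 was the middle gene of type I and KRT8 that of type II, so the types lay closer together.

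For 2 of the genes, KRT5 and KRT8, the RefSeq table of promoters held the 300 bases around a transcription start (build GRCh38.p14). They are printed because RUNX2 is a transcription factor whose binding sites contain TGTGGT or TGCGGT. Capitals mark the 5-letter cores TGTGG and TGCGG on either strand, which are part of those sites. The KRT5 window lies at chr12:52520345-52520644 and the KRT8 window at chr12:52926420-52926719, both on the minus strand. Whether the transcripts that the probes measure start in these windows was not checked.
KRT5: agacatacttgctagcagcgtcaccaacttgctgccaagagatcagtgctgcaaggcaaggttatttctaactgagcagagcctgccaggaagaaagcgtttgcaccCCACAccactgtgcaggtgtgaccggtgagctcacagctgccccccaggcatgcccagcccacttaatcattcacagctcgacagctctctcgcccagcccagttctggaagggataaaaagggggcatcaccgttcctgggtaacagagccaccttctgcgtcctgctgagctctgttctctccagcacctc
KRT8: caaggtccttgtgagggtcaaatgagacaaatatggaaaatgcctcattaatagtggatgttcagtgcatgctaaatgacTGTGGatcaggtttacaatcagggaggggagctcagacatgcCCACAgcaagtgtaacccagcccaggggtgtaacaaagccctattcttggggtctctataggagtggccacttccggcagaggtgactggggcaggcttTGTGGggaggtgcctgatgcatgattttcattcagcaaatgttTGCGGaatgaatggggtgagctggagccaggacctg
Neither promoter holds a 6-letter site, which 19.6% of the 35116 promoters of the table do. The KRT5 promoter has 1 core and the KRT8 promoter 4, while 72.9% of all promoters have at least 1. The share of promoters with as many as 4 was not counted. A match is a run of letters and no evidence of binding, and the absence of one says nothing about sequence outside this window.

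The other keratins had ratios around 0. Of 45 other keratin genes listed, 40 were matched to 44 probes, of which 34 (77.3%) were kept. Both clones were well above background on both arrays in 26 of the 44, against 13 of the 14 member probes. The constant added in the correction draws the ratios of dim probes towards 0. None of the 34 was past 1.5-fold on both arrays, against 1.35% higher and 2.32% lower of all probes. Their median log2 ratio was 0.17 in hybridization 1, -0.14 in hybridization 2 and 0.00 for the mean. On both arrays 7 were higher and 3 lower, against 29.8% and 27.3% of all probes. Signs that followed the dye were frequent, with 22 of the 34 brighter in Cy5 on both arrays, against 23.1% of all probes. Among the 14 member probes 2 were. KRT10, the bright type I keratin of suprabasal epidermis, was at 0.01 and -0.47, and KRT20, the keratin of intestinal epithelium, at 0.28 and -0.26. The highest and lowest means were those of the dim KRT14 probe (0.46) and of KRT25 (-0.46), a dim probe with the control above background on 1 array.

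**Figure D3:**
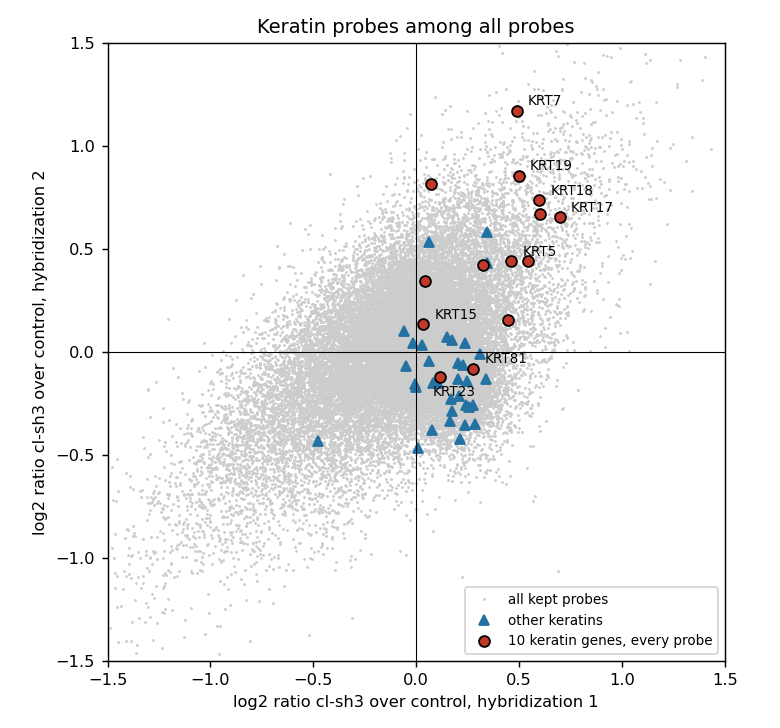
Log2 ratio of cl-sh3 over control in hybridization 1 (horizontal axis) against hybridization 2 (vertical axis) for all 36060 kept probes with a ratio on both arrays (grey; those beyond ±1.5 are not shown), the 14 probes of the 10 keratin genes (circles) and 34 probes of other keratins (triangles). Of the circles, 12 lie above 0 on both axes, and 22 of the triangles lie above 0 on the horizontal and below 0 on the vertical axis, where a probe is brighter in Cy5 on both arrays.

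Of 16 kept probes of vimentin, lamins, neurofilaments and other intermediate filament genes, 9 were higher and 1 lower in cl-sh3 on both arrays. The shares over all probes were 29.8% and 27.3%, and the median log2 ratio of the list was 0.06. The probe past 2-fold higher on both arrays was that of LMNB1, which encodes a lamin of the nuclear envelope, at 1.45 and 2.14. The lowest was a probe of VIM, the mesenchymal filament protein that many carcinoma lines make beside keratins. Its signals were 213980 in cl-sh3 and 265668 in the control in hybridization 1 and 143621 and 351666 in hybridization 2, with ratios of -0.31 and -1.29. A second VIM probe was at 0.08 and -0.87, so the arrays differed widely for VIM and the sign did not hold for both probes.

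Desmosomes and plakins anchor keratin filaments at the membrane. Of 24 kept probes, 8 were higher and 4 lower on both arrays, against 29.8% and 27.3% of all probes. Their median log2 ratio was 0.06. JUP, which encodes plakoglobin of the desmosomal plaque, had the highest ratios at 0.50 and 0.82. A probe of DST, the gene of the hemidesmosomal plakin dystonin, was the lowest and was past 1.5-fold lower, at -0.64 and -0.61, whereas other DST probes had means of -0.12 and 0.09. DSP, the gene of the plakin desmoplakin that binds keratins directly, was at 0.10 and -0.24.

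Kept probes of proteins that bind or fold keratins (14-3-3 proteins, heat shock proteins and others) numbered 41. On both arrays 19 were higher and 10 lower, against 29.8% and 27.3% of all probes. Past 1.5-fold on both arrays, 4 were higher and 1 lower, against 1.35% and 2.32% of all probes. HSPA1A, an inducible cytosolic chaperone, made up 3 of the 4, with mean log2 ratios of 1.06, 0.94 and 0.87; its near-identical copy HSPA1B may share these probes. HSPB1, a small heat shock protein that associates with keratin filaments and is named here after its values were seen, had 3 probes with means of 0.63, 0.68 and 0.68, each just under 1.5-fold in hybridization 2. The fourth was 1 of 5 probes of YWHAE, at 0.79 and 1.09, while the others had means between -0.06 and 0.21. The lowest was a probe of YWHAQ at -0.62 and -0.63.

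Of 27 kept probes of transcription factors that act on keratin genes, 10 were higher and 9 lower on both arrays. The shares over all probes were 29.8% and 27.3%, and the median of the list was 0.01. ELF3, an epithelial ETS factor, had signals of 2854 in cl-sh3 and 1598 in the control in hybridization 1 and of 2643 and 1358 in hybridization 2, with ratios of 0.84 and 0.96. It was the highest of the list and past 1.5-fold on both arrays. The lowest was 1 of the 2 probes of CEBPB, at -1.44 and -1.24 and so past 2-fold, and the other was at -0.05 and -0.07. In the list of epidermal differentiation genes 0 of 18 kept probes were past 1.5-fold on both arrays, 5 were higher and 3 lower, and the extremes were TGM1, a cross-linking enzyme of the cornified envelope, at 0.51 and 1.12, and CNFN, the gene of cornifelin, at -0.21 and -0.12.

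**Figure D4:**
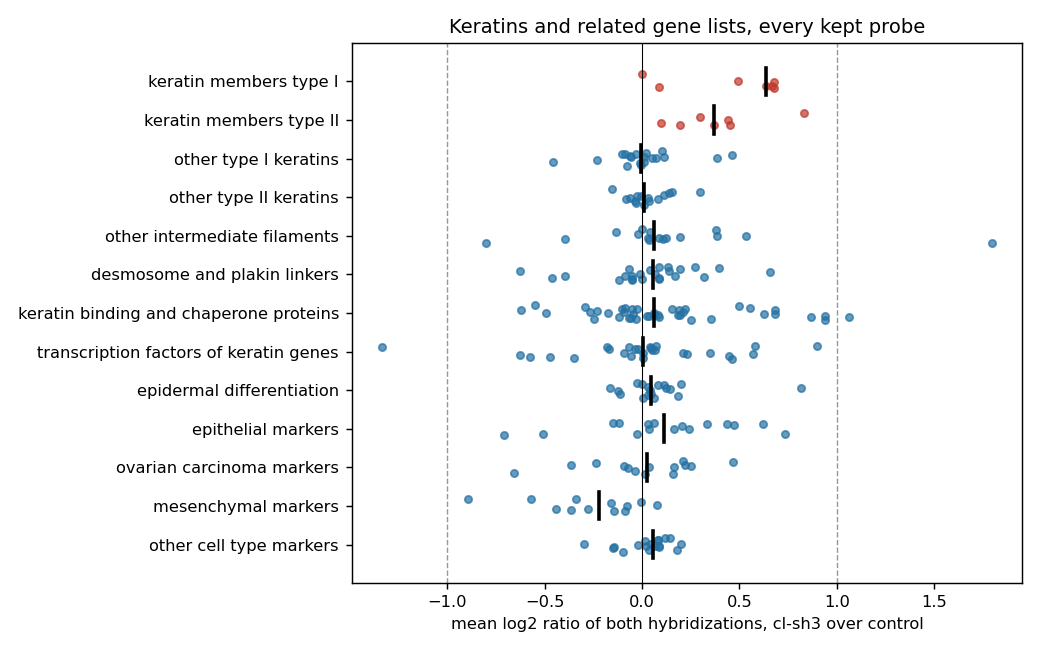
Mean log2 ratio of both hybridizations (horizontal axis) for every kept probe of the keratin members (red) and of the related gene lists (blue); black bars are medians, dashed lines mark 2-fold, and the vertical scatter within a row has no meaning. The medians are 0.64 and 0.37 for type I and type II members, between -0.00 and 0.11 for all other lists except the mesenchymal markers, and -0.22 for those.

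Markers of cell identity were examined beside the keratins. PAX8, a transcription factor of Müllerian epithelium, was well above background in both clones, with ratios of 0.01 and -0.15 for its brighter probe. Of 16 kept probes of epithelial markers, 9 were higher and 4 lower in cl-sh3 on both arrays, against 29.8% and 27.3% of all probes. Their median log2 ratio was 0.11. The highest was MAL2, a protein of apical transport, at 0.70 and 0.77, past 1.5-fold on both arrays, and the lowest was OCLN, the tight junction protein occludin, at -0.87 and -0.55. EPCAM, an epithelial adhesion protein, was at 0.50 and 0.37, and CDH1, the gene of E-cadherin, at 0.01 and 0.66.

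Of 12 kept probes of mesenchymal markers with a ratio on both arrays, 1 was higher and 10 lower, against 29.8% and 27.3% of all probes. The 12 probes come from 9 genes, FN1 gave more than 1 of them, and the median was -0.22. SNAI1, a repressor of epithelial genes, was the lowest, with signals of 831 in cl-sh3 and 1457 in the control in hybridization 1 and of 662 and 1305 in hybridization 2, and ratios of -0.81 and -0.98. TWIST1 had the highest probe, at 0.12 and 0.04. The SNAI2 probe was left without a ratio on both arrays. It was at -0.24 in hybridization 1. In hybridization 2 its spot was flagged, with uncorrected signals of 23783 in cl-sh3 and 6947 in the control. Of 14 kept probes of ovarian carcinoma markers, 7 were higher and 3 lower; SOX17 had both a probe at 0.48 and 0.45 and a brighter one at -0.56 and -0.17, and the lowest was a probe of ERBB2 at -0.86 and -0.45. Of the 18 kept probes of markers of blood, vessel, fibroblast and muscle cells, none was past 1.5-fold on both arrays, and the means ranged from -0.30 to 0.20. Both clones were well above background in 16 of the 21 probes of that list, so this flag by itself does not show that a gene was expressed, and this holds for the dim keratin probes too. The part of all these markers in the keratin differences was not tested.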

How the data were processed

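The authors scanned the arrays with Agilent Feature Extraction (10.5.1.1 per the file headers, 8.5.1.1 in the submitters' processing notes). They deposited the intensity of every spot with local background and flags, and the intensities used here were not normalised. The deposited log10 ratio of Cy5 over Cy3 is that software's own, and a deposited table of log10 ratios equals it to within 0.00245 and 0.00500. The medians of that table were 0.0108 and 0, so these ratios, unlike the intensities, were centred near 0. The authors' p-values of single spots were not used.

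Here limma 3.58.1 (R 4.3.3) was run on the median pixel intensities, with normexp background correction and an offset of 50. Control spots were left out, as were 153 and 144 spots with outlier flags, 0 of them for keratins. Loess was fitted within each array, replicate spots were then averaged per probe, and hybridization 2 had its sign turned. A probe counted as above background when at least 50% of its spots had the flag. No spot was saturated. Median signals per channel were 451 to 902.5. The number of arrays limits the precision.

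The scripts were tested on a simulated dye swap. Its changes were larger than the keratin differences, so it does not show how well differences of that size are recovered. Accessions were named through RefSeq, which held 18023 of 18715 RefSeq accessions on the arrays; NM_004348 was named RUNX2 through the study's supplementary list. The keratins, the gene lists and the rule for named genes (all keratin probes, RUNX2, and of each list the probes past 2-fold and the highest and lowest) were chosen with earlier results of these data known. The gene lists come from general knowledge. DSP, YWHAE, HSPB1, PAX8, EPCAM and CDH1 fall outside that rule and were named after their values were seen. The alternatives tried, 14 in all, concern background, normalisation, flags, detection, source of the ratios, fold rule, single hybridizations and averaging of probes. Python 3.11.15 was used for the rest.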

Additional observations from a re-analysis of the deposited data

How the results depend on the processing

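The count of 0 keratin probes past 2-fold on both arrays held in either direction under every alternative run except a limit of 1.5-fold and the use of hybridization 2 alone. With a limit of 1.5-fold 3 probes were higher and 11 probes of the other lists were past the limit, against 2 at 2-fold. Of all probes, 1.35% were past 1.5-fold higher and 2.32% lower, against 0.122% and 0.394% at 2-fold. In single hybridizations, 0 to 1 keratin probes were higher and 4 to 5 probes of the other lists were past 2-fold. The keratin probe was that of KRT7 in hybridization 2. Of all probes, 0.244% were past 2-fold higher and 1.4% lower in hybridization 1, and 0.607% and 0.544% in hybridization 2. The median log2 ratio of the keratins was 0.49 with offset 0, 0.43 without background correction and 0.50 with median centring, and the remaining settings gave 0.44 to 0.45. In each setting that used both arrays 12 keratin probes were higher on both, or 11 of 13 where both RNAs had to be above background, which leaves out KRT17. Over all probes the share higher on both arrays ran from 28.4% to 33.8% in these settings. Past 1.5-fold on both arrays were KRT17 and KRT7, and no KRT18 probe, with the scanner software's log ratios and the deposited table. With median centring KRT19 was past it in addition, and without background correction only the 2 KRT18 probes were. Of all probes, 2.27% and 2.25% were past this limit with the software's and the deposited ratios, 1.82% with median centring and 1.11% without background correction. The mean log2 ratio of KRT17 ranged from 0.50 to 1.18. KRT23 kept its sign in 5 of 9 alternatives, with means from -0.00 to 0.06, and the other keratin probes kept theirs in those. Some of these alternatives could not change a keratin ratio, namely scaling of brightness between arrays and the rules of detection. No keratin spot was flagged, and the deposited table nearly repeats the scanner software's ratios. Agreement in such settings was fixed in advance or counted again. In single hybridizations KRT23 ran from -0.12 to 0.12 and KRT81 from -0.08 to 0.28, so KRT81 changed sign too. The cause was not tested. No paired analysis was possible because the arrays are 1 pair of RNAs. KRT17 is the keratin probe whose control signal was not above background on both arrays.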
